A study of Mus musculus with 6 samples.

Results

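The genes of major histocompatibility complex (MHC) class I antigen presentation were examined in expanded mouse chondrocytes that expressed a mutant or a wild-type histone H3.3. The 9 genes were taken by name from the gene symbols of the deposited count table, which held 35976 genes. They were B2m, H2-K1, H2-D1, H2-Q4, H2-T23, Tap1, Tap2, Tapbp and Nlrc5, and all 9 passed the filter on low counts. The cells were embryonic chondrocytes, which make the matrix of cartilage, isolated at embryonic day 18.5 from hind limb articular cartilage of C57BL/6 x 129S4/SvJae mice. All cells were grown on tissue culture plastic for 16 population doublings with doxycycline at 2 µg/ml, which induced the transgene in both groups. The H3K9M group (replicates 1, 3 and 5) expressed H3.3 with methionine in place of lysine 9, described in the labels as suppressing methylation at that residue. The H3WT group (replicates 1, 2 and 4) expressed wild-type H3.3, so the controls carried an induced transgene and doxycycline too. The labels name no separate animals or cultures for the replicates, so p-values measure only the spread between these samples, which may be technical. The promoter of the transgene is not given in the sources used here, and gene counts cannot tell the mutant codon from the normal one.

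MHC class I molecules display peptides from inside the cell to CD8 T cells and carry ligands for receptors of natural killer cells. A heavy chain, encoded in the mouse by the H2-K, H2-D, H2-Q, H2-T and H2-M genes, pairs with the light chain beta-2 microglobulin. Peptides made by the proteasome are pumped into the endoplasmic reticulum by the TAP1-TAP2 transporter and loaded with the help of tapasin. NLRC5 is a transcriptional activator that acts on the promoters of class I heavy chains and of several partner genes, and most genes of the pathway respond to interferons. Methylation of H3 at lysine 9 is found on silent genes and repeats. The groups were compared to find transcripts whose level differed when the mutant histone was expressed.

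Total counts ranged from 15113675 to 19606082 per library, and no replicate pair was a repeated library (the counts of replicate pairs gave a chi-square of 26.5 to 114.4 per degree of freedom). The chondrocyte label was checked against 14 cartilage genes, of which 12 matched a row of the table. All 12 were detected, with Col2a1 at 4913 to 14110.3 CPM (CPM are read counts relative to the TMM-scaled library size). Their summed level was highest in H3WT replicate 2, at 19390.1 CPM, against 7255 to 13649 CPM in the other 5 libraries. All 12 had fitted values below 0 in H3K9M, with a median log2 fold change of -0.96, where 49.6% of all tested genes were above 0. Of the 12, 2 had an unadjusted p under 0.05 (edgeR), both lower, against 5.77% of all tested genes in that direction. They were Col9a1 (-1.89, adjusted p 0.395, edgeR) and Col9a2 (-2.13, adjusted p 0.357). Without H3WT replicate 2 the median was -0.26, with 3 of the 12 above 0. The part of this difference in the class I values was not tested. That library and H3K9M replicate 3 also had the lowest sums of 10 fibroblast and mesenchymal genes, 9950 and 11917 CPM against 23167 to 34783 CPM. Col1a1, one of these genes, ran from 3684.62 CPM in H3WT replicate 2 to 18927.5 CPM in H3WT replicate 1. In the same 2 libraries Col2a1 had 14110.3 and 4913 CPM. Of 17 macrophage and blood cell markers, 10 had 0 counts in every library, which allows up to 3 counts each in a library. These include Ptprc, Adgre1 and Itgam, while Cd68, Csf1r and Lyz2 had reads.

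Across the transcriptome, 0 of 13761 tested genes passed an adjusted p of 0.05 (edgeR quasi-likelihood test, Benjamini-Hochberg adjustment), which is a background of 0%. An unadjusted p under 0.05 was reached by 1677 genes (12.2%; 6.42% were higher and 5.77% lower in H3K9M), and DESeq2 and limma-voom called 390 (2.83%) and 0 genes after adjustment. Of the 9 class I presentation genes, 0 passed after adjustment with edgeR, DESeq2 (2.83% of all genes) or limma-voom. At an unadjusted p under 0.05 there was 1 with edgeR (H2-D1), 1 with limma-voom (12.1% of all genes) and 2 with DESeq2 (H2-D1 and Tap2; 13.6% of all genes). In 1 of the 9, again H2-D1, the 3 H3K9M libraries all lay on one side of the 3 H3WT libraries, a separation seen in 19.4% of all tested genes (10.7% with H3K9M higher and 8.68% with it lower). For the counts at an unadjusted p and without overlap, 1 gene more or fewer would cross the share of all genes. These counts are therefore not read as a result about the 9. The median log2 fold change (H3K9M minus H3WT) of the 9 genes was 0.30, with 6 above 0, against -0.003 for all tested genes, of which 49.6% were above 0. Without H3K9M replicate 3 the median of the 9 was -0.14, with 4 above 0. B2m, the 4 heavy chains and Nlrc5 had fitted values above 0, and Tap1, Tap2 and Tapbp had values below 0. Without H3K9M replicate 3, H2-Q4 and H2-T23 were below 0 too.

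**Figure D1:**
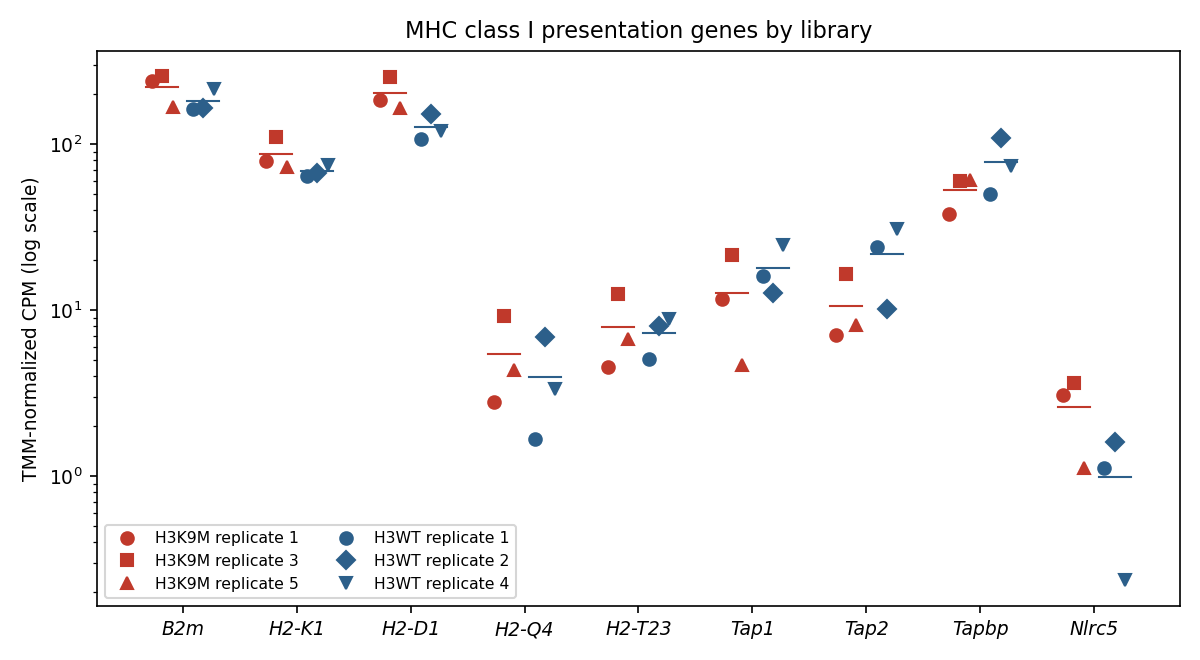
Level of the 9 genes in each library, as TMM-normalized CPM on a log axis; red points are H3K9M, blue points are H3WT and lines are group means. H2-D1 is the gene whose groups do not overlap, and H3K9M replicate 3 (red square) is the highest library for 6 of the 9.

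The heavy chain genes H2-K1 and H2-D1 encode the classical class I molecules of these strains and, like 5 others of the 9, lie on chromosome 17. In GENCODE M21 (GRCm38, the assembly of mm10) H2-K1 spans chr17:33996017-34000347 on the minus strand, and H2-D1 spans chr17:35262730-35267499 on the plus strand. Their coding sequences are 91.5% identical over 1077 aligned bases. The most different stretch of 60 aligned coding bases is shown because it marks the kind of sequence by which reads can be told apart. Capitals are the 15 bases that differ.
H2-K1: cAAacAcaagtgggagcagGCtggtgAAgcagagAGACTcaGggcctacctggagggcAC
H2-D1: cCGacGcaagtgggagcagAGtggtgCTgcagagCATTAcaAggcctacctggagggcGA
The longest coding run that both genes share without a difference is 91 bases long. A read that falls within it cannot be given to either gene by its sequence.
H2-K1 and H2-D1 shared run: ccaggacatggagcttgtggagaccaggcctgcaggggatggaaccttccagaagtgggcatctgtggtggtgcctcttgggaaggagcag
Read length is not given in the sources used here, so windows of 50 and 100 bases were compared with the GENCODE transcripts of every other gene. For H2-K1, 8.79% of 50-base windows and 0% of 100-base windows were also found in another gene. For H2-D1 the shares were 14.3% and 4.64%, most often with H2-Q1. H2-Q4 shared 39.2% and 13.9% and H2-T23 shared 29.8% and 7.28%, with Gm11131 the most frequent partner of H2-Q4. The shares were 21% and 14% for Tapbp, 12.6% and 5.35% for Tap2 and 6.47% and 3.96% for Tap1, most often with Gm19412, Gm15821 and Psmb9, which lie on the opposite strand. B2m and Nlrc5 shared 0% at either length. How reads that fit several genes were counted is not given in the sources used here.

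The promoters of H2-D1, H2-K1, B2m and Tap1 are shown as those of a light chain, the classical heavy chains and a transporter gene. Each is the 200 bases before the RefSeq start in GRCm38.p6, 5′ to 3′ along the gene. Capitals mark letters that match CCAAT (NF-Y), TGACG (a CRE core) or TTCNNNGAA (a GAS element), searched on both strands. NF-kB sites and interferon response elements were not searched.
H2-D1 (chr17:35262894-35263093, plus strand): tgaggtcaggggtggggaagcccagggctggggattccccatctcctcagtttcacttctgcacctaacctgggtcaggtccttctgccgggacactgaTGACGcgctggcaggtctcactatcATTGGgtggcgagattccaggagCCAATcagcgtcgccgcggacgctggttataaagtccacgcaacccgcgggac
H2-K1 (chr17:34000348-34000547, minus strand): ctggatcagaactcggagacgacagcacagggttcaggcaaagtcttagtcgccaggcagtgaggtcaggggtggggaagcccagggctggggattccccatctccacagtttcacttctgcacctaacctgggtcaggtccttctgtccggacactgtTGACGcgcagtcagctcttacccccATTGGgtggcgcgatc
B2m (chr2:122147487-122147686, plus strand): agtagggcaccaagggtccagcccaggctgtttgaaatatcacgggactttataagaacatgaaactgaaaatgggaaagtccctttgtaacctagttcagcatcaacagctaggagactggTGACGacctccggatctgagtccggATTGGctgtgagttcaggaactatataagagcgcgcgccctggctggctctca
Tap1 (chr17:34187356-34187555, plus strand): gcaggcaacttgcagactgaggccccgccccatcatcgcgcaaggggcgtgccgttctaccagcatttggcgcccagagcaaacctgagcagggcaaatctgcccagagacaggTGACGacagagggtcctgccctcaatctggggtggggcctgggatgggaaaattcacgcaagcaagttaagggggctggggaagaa
RefSeq promoters were found for 7 of the 9 genes. The CCAAT letters were in 6 of the 7 (all but Tap1) and in 30% of 27025 promoters of the same length. The CRE core was in 5 of the 7 (B2m, H2-K1, H2-D1, H2-Q4 and Tap1) and in 15.8% of all promoters. The GAS letters were in 0 of the 7 and in 5.62% of all promoters, and Tap1 held the CRE core alone. H2-K1, H2-D1, H2-Q4 and H2-T23 are related heavy chain genes, so their matches are not independent of each other. The CCAAT match of Tapbp lay 165 to 161 bases before the start, farther than any other CCAAT match of the 7 (at most 79). These matches describe letters, not bound sites.

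H2-D1 was the most abundant heavy chain transcript. It had 185, 255 and 165 CPM in H3K9M replicates 1, 3 and 5 and 107, 151 and 119 CPM in H3WT replicates 1, 2 and 4. The groups did not overlap, though H3WT replicate 2 came close to the lowest H3K9M library. Group means were 202 ± 46.9 and 126 ± 22.8 CPM (SD over 3 libraries each), and the fitted difference was 0.68 on the log2 scale (SE 0.20, 95% interval 0.22 to 1.13, adjusted p 0.261, edgeR). By unadjusted p (0.00872) it ranked 459 of 13761 genes. This difference ran from 0.49 without H3K9M replicate 3 to 0.84 without H3WT replicate 2, and the adjusted p over the 12 alternatives from 0.0717 (DESeq2) to 0.534.

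H2-K1 had 79.5, 110.0 and 72.3 CPM in H3K9M and 64.6, 66.6 and 74.6 CPM in H3WT. The H3WT values lay close together, and H3WT replicate 4 was above H3K9M replicate 5. H2-K1 differed by 0.35 on the log2 scale (SE 0.17, 95% interval -0.05 to 0.75, adjusted p 0.456, edgeR). It was 0.16 without H3K9M replicate 3.

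The H2-D1 reads per H2-K1 read, a ratio that needs no library scaling, were 2.33, 2.31 and 2.28 in H3K9M. In H3WT they were 1.66, 2.27 and 1.60. The H3K9M libraries agreed closely, H3WT replicate 2 was next to them, and the other H3WT libraries were lower. The difference in the mean log2 ratio was 0.34 (two-sided exact permutation p 0.1, the smallest that 3 libraries against 3 can give). The ratio was chosen after its values were seen, as 1 of 7 ratios computed, and its adjustment over 7 could not pass a threshold of 0.05.

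The non-classical heavy chains were low. H2-T23 encodes Qa-1, a ligand of receptors on natural killer cells, and H2-Q4 encodes a class I molecule of the H2-Q group. H2-T23 had 4.56, 12.4 and 6.68 CPM in H3K9M and 5.05, 7.99 and 8.90 CPM in H3WT. H2-Q4 had 2.81, 9.23 and 4.34 CPM in H3K9M and 1.68, 6.90 and 3.36 CPM in H3WT. For both genes the groups overlapped and H3K9M replicate 3 was highest. Fitted log2 differences were 0.11 (SE 0.42, adjusted p 0.945, edgeR) for H2-T23 and 0.46 (SE 0.63, adjusted p 0.824) for H2-Q4. Without H3K9M replicate 3 both were below 0, at -0.37 and -0.14. About 19.1% of the exon bases of H2-Q4 are overlapped by Gm11131 on the opposite strand, and the strand setting of the counts is not given in the sources used here.

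Of 30 heavy chain symbols of the H2-K, H2-D, H2-Q, H2-T and H2-M groups, 27 matched a row of the table, 16 had reads and 10 were tested. Of these 10, 8 had a log2 fold change above 0 (49.6% of all tested genes), with a median of 0.40. An unadjusted p under 0.05 (edgeR) was reached by 1 of the 10, against 12.2% of all tested genes. Without H3K9M replicate 3 the median was 0.006, with 5 above 0. Of the other tested genes, H2-T22 averaged 24.1 ± 8.15 and 24.2 ± 2.64 CPM in H3K9M and H3WT (SD over 3 libraries each). H2-T22 and H2-T10 were the 2 with fitted values below 0, at -0.001 and -0.27. H2-T22 shared 37.9% of its 50-base windows with H2-T10, so reads may be split between them. H2-K1 and H2-D1 together took 84.1% to 89.3% of heavy chain reads in H3K9M and 80.7% to 83.5% in H3WT.

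Because paralogs can trade reads, the counts of all heavy chain genes were also summed into 1 feature and refitted with all other genes. The sum cannot bring back reads that were dropped or counted for genes outside the list, such as Gm11131. The sum had 296.5, 433.5 and 277.5 CPM in H3K9M and 206, 263 and 239.9 CPM in H3WT. The lowest H3K9M library lay above the highest H3WT library, a separation in that direction seen in 10.7% of all tested genes. H2-D1, which separated too, held 2765 of the 4426 heavy chain reads in H3K9M replicate 1. In H3WT replicate 1 it held 1914 of 3670. The fitted log2 difference of the sum was 0.51 (SE 0.19, 95% interval 0.07 to 0.95, unadjusted p 0.0291, adjusted p 0.354, edgeR). Without H3K9M replicate 3 it was 0.29 (unadjusted p 0.0782), and leaving out H3WT replicate 1 or 4 gave an unadjusted p of 0.0988 or 0.0622. The adjusted p ran from 0.212 to 0.633 over all alternatives. The sum of H2-K1 and H2-D1 alone gave 0.57 (SE 0.18, adjusted p 0.29).

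B2m encodes the light chain shared by class I molecules and lies on chromosome 2 (chr2:122147686-122153083). It had 240.1, 257 and 167 CPM in H3K9M and 162, 165 and 215 CPM in H3WT. H3K9M replicates 1 and 3 were the highest libraries, and H3K9M replicate 5 lay among the H3WT libraries. For B2m the fitted log2 difference was 0.30 (SE 0.19, 95% interval -0.15 to 0.74, adjusted p 0.571, edgeR). Heavy chain reads per B2m read were 1.23, 1.69 and 1.66 in H3K9M and 1.27, 1.60 and 1.12 in H3WT, a mean log2 difference of 0.20 (two-sided exact permutation p 0.3).

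**Figure D2:**
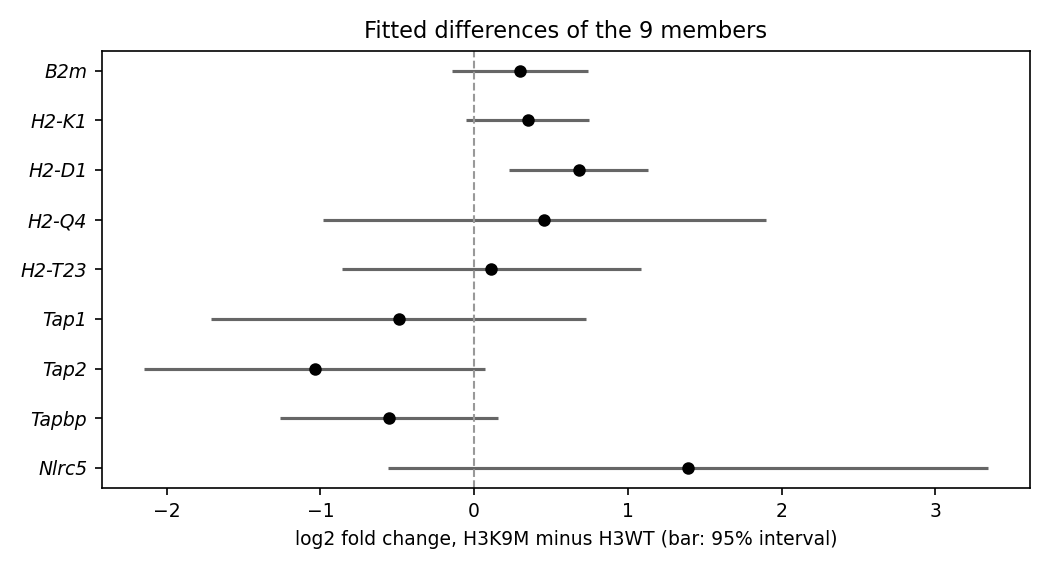
Fitted log2 fold change (H3K9M minus H3WT) of each gene with its 95% interval. The interval of H2-D1, 0.22 to 1.13, is the one that does not include 0, and no gene passed after adjustment over 13761 genes.

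The transporter genes Tap1 and Tap2 lie close together on chromosome 17 (chr17:34187553-34197225 and chr17:34203527-34216321). Tap2 had 7.03, 16.5 and 8.11 CPM in H3K9M and 24.03, 10.12 and 31.0 CPM in H3WT. H3WT replicates 1 and 4 were highest, and H3WT replicate 2 lay between the H3K9M libraries. Group means were 10.54 ± 5.17 and 21.7 ± 10.63 CPM (SD over 3 libraries each), a fitted log2 difference of -1.04 (SE 0.48, 95% interval -2.15 to 0.07, adjusted p 0.432, edgeR). The value was -1.50 without H3K9M replicate 3, -1.37 without H3WT replicate 2 and -0.69 without H3WT replicate 4.

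Tap1 had 11.7, 21.6 and 4.69 CPM in H3K9M and 16, 12.8 and 24.7 CPM in H3WT. The groups overlapped widely, with H3WT replicate 4 and H3K9M replicate 3 highest and H3K9M replicate 5 lowest. For Tap1 the fitted log2 difference was -0.49 (SE 0.52, 95% interval -1.71 to 0.73, adjusted p 0.756, edgeR). Exons of Psmb9 on the opposite strand overlap 212 exon bases of Tap1, and those of Gm15821 overlap 14.1% of the exon bases of Tap2.

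Tapbp encodes tapasin, which holds empty class I molecules at the transporter. It had 38.0, 59.5 and 60.6 CPM in H3K9M and 49.7, 109 and 73.6 CPM in H3WT. H3WT replicates 2 and 4 were highest, and H3WT replicate 1 lay among the H3K9M libraries. Its fitted log2 difference was -0.55 (SE 0.30, 95% interval -1.26 to 0.16, adjusted p 0.499, edgeR), and -0.21 without H3WT replicate 2. Gm19412 on the opposite strand overlaps 24.9% of the exon bases of Tapbp.

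Heavy chain reads per read of Tap1 and Tap2 were 15.9, 11.4 and 21.7 in H3K9M. In H3WT they were 5.15, 11.5 and 4.31. H3WT replicate 2 was level with H3K9M replicate 3, and the other 2 H3WT libraries were the lowest. The mean log2 ratio was higher in H3K9M by 1.31 (two-sided exact permutation p 0.2, where 0.1 is the smallest possible), a ratio chosen after the values were seen. B2m reads per read of Tap1 and Tap2 showed the same order of group means, 10.9 ± 3.58 and 5.03 ± 1.88 (SD, n = 3 each; two-sided exact permutation p 0.2).

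**Figure D3:**
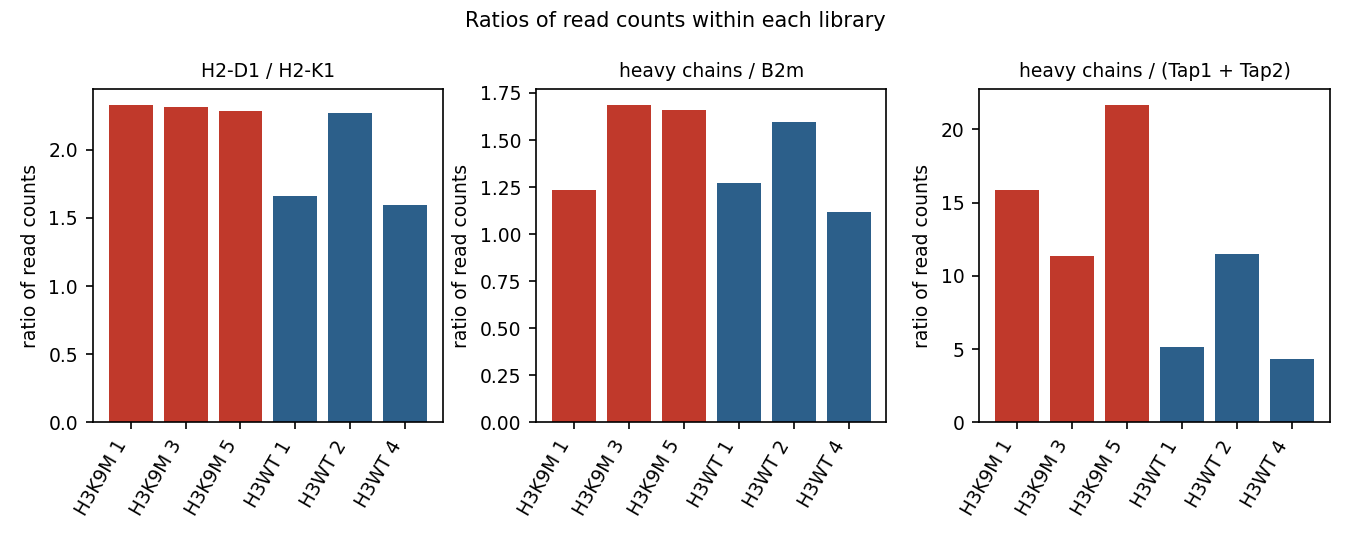
Ratios of read counts within each library, from the left H2-D1 to H2-K1, all heavy chains to B2m, and all heavy chains to Tap1 and Tap2 together; red bars are H3K9M and blue bars are H3WT. In the left and right panels H3WT replicate 2 stands with the H3K9M libraries, at 2.27 and 11.5.

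Nlrc5 was the least abundant of the 9 genes, with 46, 75 and 22 reads in H3K9M and 20, 31 and 4 reads in H3WT. This is 3.08, 3.62 and 1.12 CPM against 1.12, 1.61 and 0.236 CPM. H3K9M replicates 1 and 3 were highest, H3K9M replicate 5 was level with H3WT replicate 1, and H3WT replicate 4 was lowest. Nlrc5 had a fitted log2 difference of 1.39 (SE 0.85, 95% interval -0.56 to 3.34, adjusted p 0.54, edgeR). H3WT replicate 4, with the lowest Nlrc5, held the highest Tap1 and Tap2. That difference was 0.93 without H3WT replicate 4, the lowest value over the alternatives.

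Scaled by the length of the longest protein-coding transcript, B2m had the highest level (257 ± 55.6 CPM per kb in H3K9M and 210 ± 34.6 in H3WT; SD, n = 3 each). H2-D1 followed at 95.9 ± 22.3 and 59.9 ± 10.8 CPM per kb, then H2-K1 at 53.9 ± 12.4 and 42.4 ± 3.25, then Tapbp at 18.2 ± 4.39 and 26.7 ± 10.299. H2-T23, Tap1, Tap2 and H2-Q4 lay between 2.22 and 6.31 CPM per kb, and their order did not hold beyond their spread. Nlrc5 was lowest, at 0.344 ± 0.174 and 0.131 ± 0.0919 CPM per kb.

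**Figure D4:**
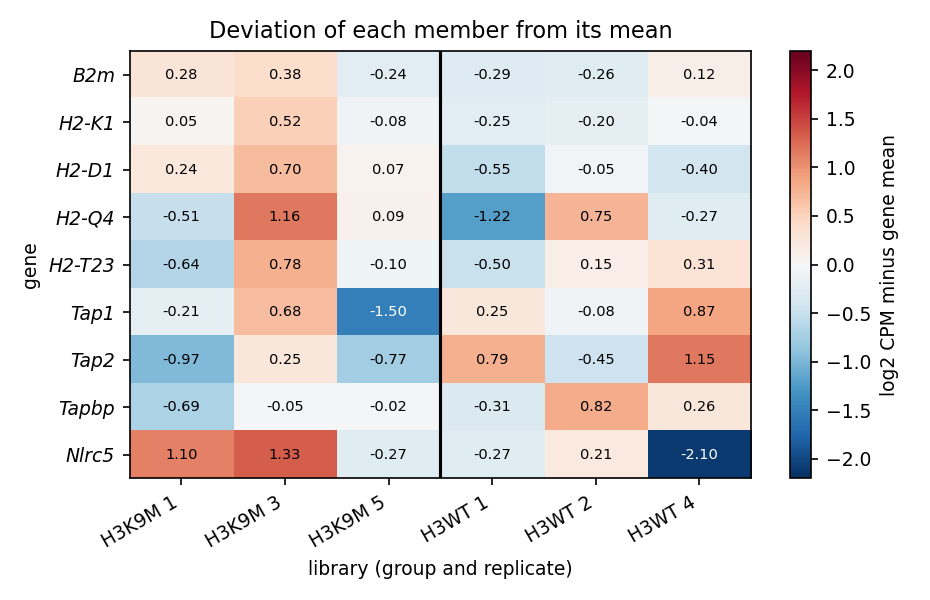
Deviation of each gene's log2 CPM (prior count 2) from its mean over the 6 libraries; columns are libraries, with H3K9M left of the line. H3K9M replicate 3 is above the mean for 8 of the 9 genes, and Tap1 and Tap2 have their highest values, 0.87 and 1.15, in H3WT replicate 4, where Nlrc5 has its lowest, -2.10.

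Further genes of the pathway were taken from lists written from general knowledge. Their counts at an unadjusted p under 0.05 stand against 12.2% of all tested genes, and their counts above 0 against 49.6%. Of 16 tested genes for peptide loading and trimming, 2 had an unadjusted p under 0.05, both higher in H3K9M, and the median log2 fold change was -0.06. They were Sec61g, a subunit of the translocation channel of the endoplasmic reticulum (log2 difference 0.76, SE 0.20, adjusted p 0.239, edgeR), and Ide, a peptide-degrading protease (0.59, SE 0.19, adjusted p 0.296). Calr, the calreticulin chaperone of peptide loading, averaged 1276 ± 361 and 1758 ± 151 CPM in H3K9M and H3WT (SD over 3 libraries each), a log2 difference of -0.46 (SE 0.22, adjusted p 0.446, edgeR). Erap1, the trimming peptidase of the endoplasmic reticulum, had 18.4 ± 1.70 and 24.95 ± 5.04 CPM (-0.44, SE 0.20, adjusted p 0.43). For Calr and Erap1 the H3WT libraries all lay above the H3K9M libraries, and for Sec61g and Ide they all lay below. These are 2 of the 16 genes in each direction, against 8.68% and 10.7% of all tested genes.

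Of 6 tested genes of the immunoproteasome and its activator, 1 had an unadjusted p under 0.05. This was Pomp, the proteasome maturation factor, which averaged 57.8 ± 1.88 and 39.8 ± 0.457 CPM in H3K9M and H3WT (SD over 3 libraries each), a log2 difference of 0.54 (SE 0.12, adjusted p 0.206, edgeR). The immunoproteasome subunits Psmb8 and Psmb9, encoded beside Tap1 and Tap2, were near the limit of detection. Psmb8 had 2, 17 and 0 reads in H3K9M and 10, 9 and 36 in H3WT. Psmb9 had 5, 6 and 0 reads in H3K9M and 9, 0 and 17 in H3WT. Both were highest in H3WT replicate 4 and at 0 in H3K9M replicate 5, which were also the highest and lowest libraries for Tap1. Psmb9 was at 0 in H3WT replicate 2 too, and Tap1 shared 5.61% of its 50-base windows with Psmb9, so reads may be shared.

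**Figure D5:**
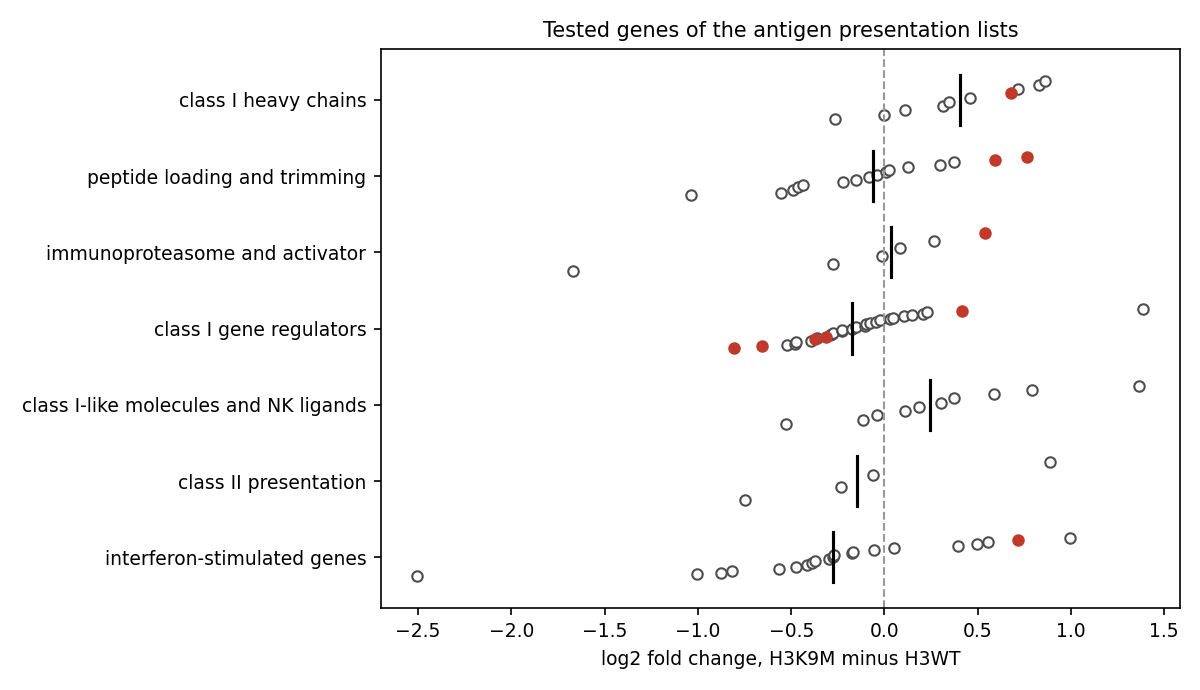
Log2 fold change (H3K9M minus H3WT) of each tested gene of the lists; filled red points have an unadjusted p under 0.05 (edgeR), open points do not, and black bars are list medians. The heavy chain list has its median at 0.40 and the list of interferon-stimulated genes at -0.28.

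Of 29 tested regulators of class I genes, 5 had an unadjusted p under 0.05, with 1 higher and 4 lower (6.42% and 5.77% of all genes), and the median was -0.17. Ifngr2, a chain of the interferon gamma receptor, differed by 0.41 on the log2 scale (SE 0.16, adjusted p 0.373, edgeR). Jak1, a kinase of interferon receptors, had -0.66 (SE 0.25, adjusted p 0.357), and Stat2, a transcription factor of the type I interferon response, had -0.81 (SE 0.31, adjusted p 0.357). Ciita, the class II counterpart of Nlrc5, had 2 reads in H3K9M replicate 3 and 0 in the other libraries. Of 21 tested interferon-stimulated genes, 1 had an unadjusted p under 0.05, 6 had values above 0 and the median was -0.28, which ran from -0.35 without H3K9M replicate 3 or H3WT replicate 1 to -0.12 without H3WT replicate 2. That gene was Samd9l (0.72, SE 0.23, adjusted p 0.293, edgeR). Igtp, an interferon-induced GTPase, averaged 0.298 ± 0.258 and 1.77 ± 0.691 CPM in H3K9M and H3WT (SD over 3 libraries each), a log2 difference of -2.50 (SE 1.11, adjusted p 0.415, edgeR). This rests on few reads, 0, 9 and 9 in H3K9M and 28, 23 and 43 in H3WT.

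Of 10 tested class I-like molecules and ligands of natural killer receptors, 0 had an unadjusted p under 0.05 with edgeR and 7 had values above 0. Raet1d and H60b, ligands of the NKG2D receptor, differed by 0.79 on the log2 scale (SE 0.38, adjusted p 0.449, edgeR) and 1.36 (SE 0.70, adjusted p 0.466). Fcgrt, the neonatal Fc receptor that also pairs with B2m, had -0.53 (SE 0.24, adjusted p 0.422). Class II genes were low, with a summed level of 9.85 to 12.3 CPM over the 6 libraries, 6 of 11 at 0 reads throughout and 0 of 4 tested genes at an unadjusted p under 0.05 (edgeR).

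Markers of other cells were set beside the class I values. The 17 macrophage and blood cell markers summed to 8.04 to 16.8 CPM in H3K9M and 4.05 to 6.29 CPM in H3WT, and 10 of the 17 had 0 reads in every library. The 3 that were tested all had fitted values above 0, with a median of 0.72 (0.14 without H3WT replicate 2), and none had an unadjusted p under 0.05 (edgeR). Cd68, a lysosomal protein of macrophages that other cells also express, had 2.61, 12.8 and 4.74 CPM in H3K9M and 0.618, 3.37 and 2.00 CPM in H3WT, and was highest in H3K9M replicate 3, as were 6 of the 9 class I genes. Csf1r, the receptor of a macrophage growth factor, had 53, 44 and 67 reads in H3K9M and 66, 0 and 31 reads in H3WT. Lyz2, a lysozyme of myeloid cells, had 28, 27 and 19 reads in H3K9M and 35, 9 and 13 reads in H3WT. For Csf1r and Lyz2 the groups overlapped, with H3WT replicate 2 lowest. The part of these markers in the class I values was not tested. Ptprc, the pan-leukocyte marker, had 0 reads in all 6 libraries. The 8 endothelial markers summed to 0.765 to 1.06 CPM in H3K9M and 0.884 to 2.28 CPM in H3WT, and 4 of them had 0 reads throughout. In bulk RNA, fewer cells of a type and less RNA per cell cannot be told apart.

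The genes whose levels over the 6 libraries were most like the mean centred log2 CPM of the 9 genes were Rai14 (Pearson r 0.993), Spp1 (0.988), Mdm2 (0.988) and Rnf135 (0.987), and the 10 closest had r of at least 0.969. This is a description over 6 libraries that share their depth and scaling, picked from all tested genes outside the lists. The 9 genes themselves followed their own mean less closely, with r from 0.19 (Tap2) to 0.83 (H2-T23). Spp1, which encodes the matrix protein osteopontin, had 680.3, 2401 and 491 CPM in H3K9M and 633, 1004 and 1005 CPM in H3WT. H3K9M replicate 3 was the highest library for Spp1, as for 6 of the 9 genes. The mean of the 9 also peaked there (0.64), so this follows from how Spp1 was picked. The adjusted p was 0.833 for Spp1 and 0.926 for Rai14 (edgeR).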

How the data were processed

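Polyadenylated RNA of 3 H3K9M and 3 H3WT libraries was compared. The authors deposited raw counts of reads for each gene symbol and library, whole numbers with differing totals. HISAT2, featureCounts, DESeq2 and the mm10 build are named, with no versions or roles, per the submitters' processing notes. The annotation, read length, strand setting and treatment of multi-mapping reads are not given in the sources used here. Groups came from the titles, each column name matched a title, and 0 columns lay outside the series.

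The main test was edgeR 4.0.16 in R 4.3.3 (filterByExpr, TMM, robust quasi-likelihood fit, genotype as the only term), and p-values were adjusted by Benjamini-Hochberg over all 13761 tested genes. Standard errors are the log2 fold change divided by the root of F. Alternatives used DESeq2 1.42.0, limma-voom (limma 3.58.1), other scalings and filters, each library left out, and summed heavy chains. Scripts were tested on simulated data. Precision is limited by 3 libraries per group. The table records no molecular identifiers, so the limit given for a count of 0 covers counting error only. Coordinates and transcripts are from GENCODE M21 and promoters from RefSeq GRCm38.p6 (first listed start per gene, promoters on chromosome 18 left out). The 9 genes and the lists were chosen with earlier results of these data known. The text names all 9 genes, a selection in each list by smallest p in each direction and highest level, and the genes most like the 9; Ciita, Psmb9, Csf1r, Lyz2, Col9a1, Col9a2, the blood cell markers at 0 reads and the read ratios were named after their values were seen. The list medians with a library left out were also added after seeing the data.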

Additional observations from a re-analysis of the deposited data

How the results depend on the processing

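No paired analysis was possible because the groups share only replicate number 1. Of the 9 genes, 0 passed after adjustment under every alternative run, and B2m, H2-K1, H2-D1, Tap1, Tap2, Tapbp and Nlrc5 kept their sign throughout. The count over all genes was 36 with every gene that had a count, 390 with DESeq2, and 0 to 91 when a library was left out (91 without H3WT replicate 2). The number of the 9 at an unadjusted p under 0.05 was 2 with DESeq2 (13.6% of all genes) and 1 to 3 when a library was left out (8.48% to 17.1% of all genes). The number without overlap was 2 with library size alone (19.3% of all genes). It was 1 to 4 when a library was left out (26.8% to 37.4% of all genes), where 2 libraries against 3 separate more easily. With heavy chains summed into 1 feature, 5 of the 9 remain. Of these, 0 were at an unadjusted p under 0.05 and 0 without overlap (12.2% and 19.4% of all features). Their median log2 fold change was -0.49. The median of the 9 ran from -0.14 (without H3K9M replicate 3) to 0.47 when a library was left out. The sign of H2-Q4 turned without H3K9M replicate 3 (-0.14), and that of H2-T23 without H3K9M replicate 3 (-0.37) or H3WT replicate 1 (-0.10). With a library left out they ran from -0.14 to 1.13 and from -0.37 to 0.39. The causes were not tested. The log2 fold change of the summed heavy chains was 0.29 to 0.64 when a library was left out. Scaling by library size alone moved the median of all genes to 0.05. Nlrc5 was not tested where every library needed at least 10 counts. Depth limits Nlrc5, Psmb8, Psmb9 and Igtp, which have as few as 4, 0, 0 and 0 reads in a library.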
